A study of Mus musculus with 18 samples.

Results

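Ovaries of 40-week-old mice given Samul-tang were compared with ovaries of 40-week-old mice given distilled water, 6 libraries against 6. These 12 libraries, of 18 in the series, were chosen by their labels alone, by age and by what the mice were dosed with, and no measured value entered the choice. All mice were wildtype Balb/c females. Samul-tang (SM in the labels), a herbal decoction, was given by mouth at 2.5 g/kg, 5 times a week for 4 weeks, and the aged controls received distilled water. The remaining 6 libraries came from 8-week-old mice given distilled water. They served in the fit to estimate the spread, and their levels are printed only as a reference. Every mouse, controls included, was primed with pregnant mare serum gonadotropin (5 IU) and after 48 hours given human chorionic gonadotropin (hCG, 5 IU), and its ovaries were collected 16 hours after the hCG injection. The 2 aged groups were kept apart inside shared cages, per the labels' protocols, which do not name the cage of each mouse. Total RNA of whole ovary was read with a 3′ tag method, so a value sums all cell types of the organ, and fewer cells of a type and less RNA per cell cannot be told apart.

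An ovulatory dose of hCG acts through the luteinising hormone receptor on the granulosa and theca cells of large follicles. It switches on genes for cumulus expansion and follicle rupture, releases the egg, and then turns the ruptured follicle into a corpus luteum, a vascular gland that makes progesterone. With age the store of follicles shrinks, so that the whole organ holds fewer oocytes and growing follicles. Ovaries taken after ovulation therefore contain new luteal tissue beside older corpora lutea, stroma, vessels and the remaining follicles.

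Markers of the labelled tissue were present: the 5 luteal markers (Star, Cyp11a1, Hsd3b1, Lhcgr and Akr1c18) summed to between 12638 and 14565 CPM (counts per 1000000, scaled for library size) in the water group and to between 13244 and 15705 CPM in the treated group. The libraries of the 2 groups differed in depth and make-up. Depth, the sum of expected counts in units of 1000000, was 17.2 ± 2.05 in the treated and 12.5 ± 0.714 in the water group (SD, n = 6; two-sided exact permutation p = 0.00216, the smallest that 924 regroupings can give; adjusted p = 0.00505 over 7 library measures), with no overlap. ENSMUSG00000119584, the gene with the most counts, took 10.7 ± 3.13% of treated and 15.4 ± 1.70% of water counts (exact permutation p = 0.00433, adjusted p = 0.00758, n = 6). Treated libraries 1, 2 and 3 held 10.2%, 8.24% and 6.20% of it, while treated libraries 4, 5 and 6 held 14.4%, 13.4% and 12.0%. The share of cytosolic ribosomal protein genes was 8.76 ± 0.322% with Samul-tang and 7.72 ± 0.268% with water (n = 6, exact permutation p = 0.00216, adjusted p = 0.00505). That of mitochondrial ribosomal RNA was 1.64 ± 0.412% with Samul-tang and 2.33 ± 0.196% with water (n = 6, exact permutation p = 0.00866, adjusted p = 0.0101). More genes were detected in the treated libraries, 23459 ± 435 against 22853 ± 232 (exact permutation p = 0.00866, adjusted p = 0.0101, n = 6). The sources used here name no preparation or sequencing batch, so such a batch, depth and treatment cannot be told apart.

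**Figure D1:**
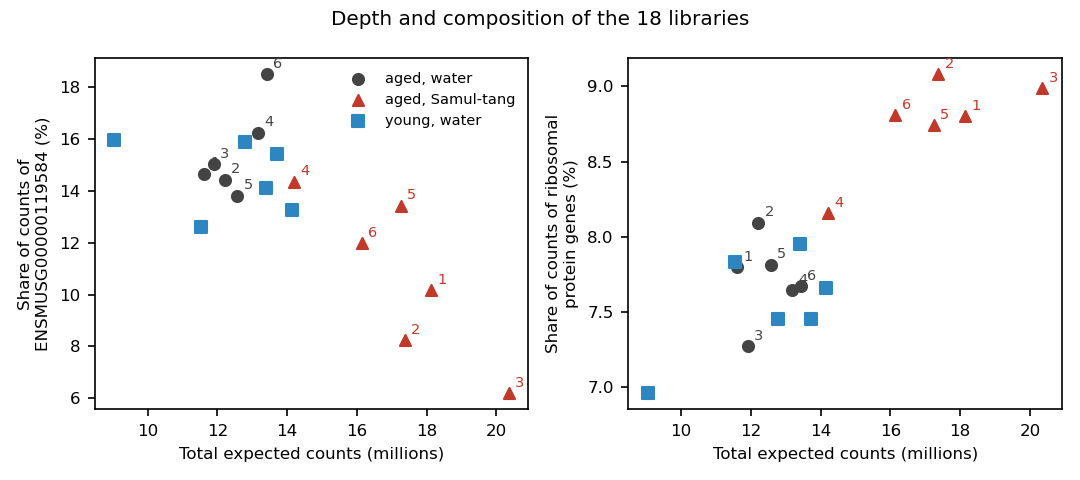
Share of counts of ENSMUSG00000119584 (left, %) and of ribosomal protein genes (right, %) against total expected counts in units of 1000000, 1 point per library, with replicate numbers beside the aged libraries. All 6 treated libraries lie to the right of the 6 aged water libraries, and only treated library 4 (14.4%) lies within the water range for ENSMUSG00000119584, 13.8% to 18.5%.

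Few genes were called between treated and water ovaries, and most of their changes were small. The count of calls does not give the number of genes that differ. Of 16959 genes tested, 176 (1.04%) were called at an adjusted p under 0.05 by edgeR's quasi-likelihood test, 93 (0.548%) higher and 83 (0.489%) lower in treated ovaries. The median log2 fold change of the called genes was 0.37 among those higher and -0.40 among those lower, against 0.0064 over all genes tested. Only 32 called genes differed by at least 1.5-fold, 16 in each direction, and 12 by at least 2-fold, 7 higher and 5 lower. The groups did not overlap for 52 of the higher and 46 of the lower genes, and for 1.53% of all genes tested. When log2 total counts were added to the edgeR fit as a covariate, 0 genes were called and 1197 had an unadjusted p under 0.05. With ENSMUSG00000119584's share as the covariate, 0 were called and 1356 had an unadjusted p under 0.05. No other tool was run with these covariates, and the fit without them had 2858 of 16959 genes at an unadjusted p under 0.05. Counts at that threshold in the lists below are to be read beside that share, and short lists can hold 0 calls at 1.04%. All 176 genes kept their sign in both covariate fits, but they were chosen by the same contrast, so this carries no test. Their median absolute log2 fold change was 0.29 in each, against 0.39 without a covariate. Their median SE rose from 0.083 to 0.124 and 0.106. Depth did not overlap between the aged groups, so the fit with log2 total counts cannot separate depth from treatment.

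**Figure D2:**
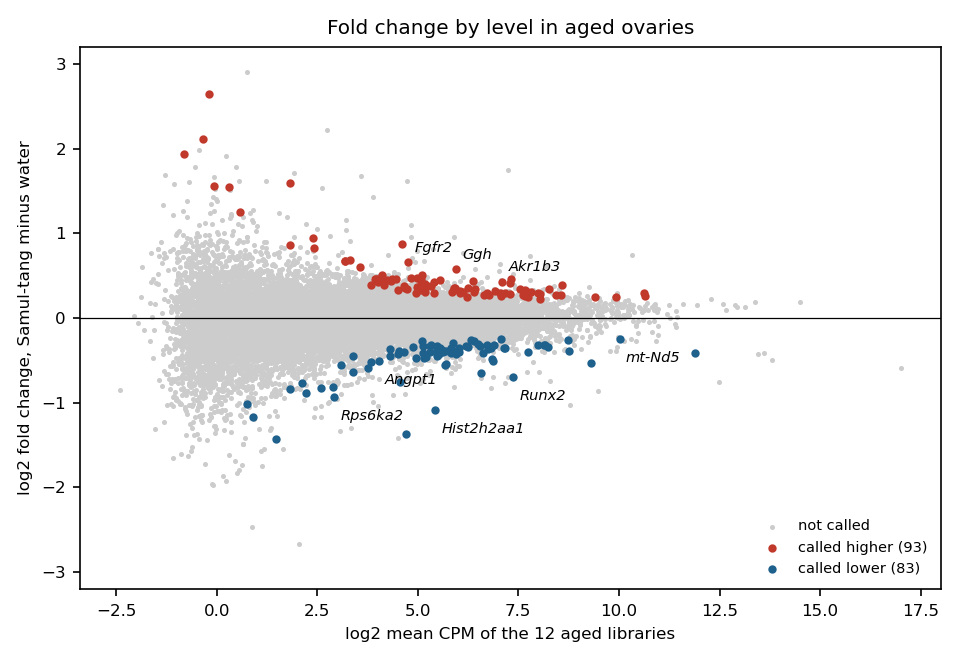
Log2 fold change of Samul-tang over water against the log2 mean CPM of the 12 aged libraries, 1 point per gene. The 93 genes called higher and the 83 called lower include changes of -1.08 for Hist2h2aa1 and -0.69 for Runx2 at moderate levels, while the called genes as a whole have medians of 0.37 and -0.40, and 1 gene beyond 3.2 on the vertical axis is not shown.

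Genes called higher tended to be short and genes called lower to be long. The median gene length in the authors' tables was 1169 bases for the higher, 3621 for the lower and 2207 for all genes tested. With the genes tested split evenly by length into 3 bins, 54 of the shortest were called higher and 15 lower, of the middle bin 26 and 19, and of the longest 13 and 49. The median log2 CPM of the shortest bin minus that of the longest was also larger in the treated libraries, -0.435 ± 0.0129 against -0.481 ± 0.0203 (SD, n = 6; exact permutation p = 0.00216, adjusted p = 0.00505). With a trend on length removed from the counts, 88 genes were called higher and 51 lower, and the bins, from shortest to longest, held 41 and 16, 25 and 16, and 22 and 19. Whether library preparation had a part in this was not tested.

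Ribosomal protein genes were called higher in small numbers and most of their values lay above 0. Ribosomal proteins form the cytosolic ribosome, and a separate set builds the ribosome inside mitochondria. Of 83 cytosolic ribosomal protein genes, 4 (4.82%) were called higher and 0 lower, beside 0.548% of all genes called higher. Their median log2 fold change was 0.12, and 78 of 83 values (94.0%) were above 0, against 51.4% of all genes. Of the 83, 45 had an unadjusted p under 0.05. These are short genes (median length 548 bases). The list's median was 0.10 with the length trend removed, 0.11 with ENSMUSG00000119584's share as a covariate and 0.13 without treated libraries 1, 2 and 3, but 0.03 with log2 total counts as a covariate.

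Rps2, a protein of the small subunit, lay at 172 CPM at the lowest, 179 at the median and 192 at the highest in the water group and at 209, 221 and 265 CPM in the treated group. The groups did not overlap, and the log2 fold change was 0.33 ± 0.07 (SE; edgeR adjusted p = 0.0242). Rpl32 and Rpl5, of the large subunit, each rose by 0.25 on the log2 scale (SE 0.05 and 0.06; edgeR adjusted p = 0.0273 and 0.0298), Rpl32 without overlap and Rpl5 with it. Rpl37rt rose most in the list: its water libraries ran from 24.6 through a median of 27.4 to 34.8 CPM and its treated libraries from 34.1 through 40.8 to 44.5 CPM (log2 fold change 0.51 ± 0.09, edgeR adjusted p = 0.0111). Only the lowest treated library fell inside the water range, and Rpl37rt was called under 25 of 27 alternatives.

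Rpl37rt is a near copy of Rpl37, so the split of reads between them is uncertain. Rpl37 itself stood at 1780 ± 117 CPM in the water and 1977 ± 104 CPM in the treated group (SD, n = 6; log2 fold change 0.15 ± 0.05, edgeR adjusted p = 0.131). Their open reading frames, taken from GENCODE M21 transcripts of genes on chromosomes 15 (Rpl37) and 5 (Rpl37rt), are both 294 bases long, match at 99.7% of positions and share an identical run of 248 bases. Sequence outside the open reading frames was not compared. The one difference is G249A, counted from the A of the start codon with the base of Rpl37 first. Reads inside the frames that do not cover it match both genes. It is in capitals in the stretch from base 219 to 278, shown here.
Rpl37: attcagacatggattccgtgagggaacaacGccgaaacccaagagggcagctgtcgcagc
Rpl37rt: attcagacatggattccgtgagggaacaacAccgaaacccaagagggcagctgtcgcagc

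Among 80 genes listed by symbol as mitochondrial ribosomal proteins, 3 (3.75%) were called higher and 0 lower, beside 0.548% of all genes called higher. Their median log2 fold change was 0.11, with 68 values above 0. Whether the protein of each listed gene, Mrps36 among them, belongs to that ribosome was not tested. Mrps36, at 32.6 to 41.0 CPM in the water group (median 35.6) and 41.9 to 55.9 CPM in the treated group (median 48.5), did not overlap between groups (log2 fold change 0.43 ± 0.08, edgeR adjusted p = 0.0141). Mrpl36 (0.37 ± 0.08, edgeR adjusted p = 0.0305) and Mrpl27 (0.31 ± 0.07, edgeR adjusted p = 0.0349) rose with overlapping groups, called under 16 and 10 of 27 alternatives. The median of the mitochondrial ribosomal protein list was 0.10 with the length trend removed and 0.11 without treated libraries 1, 2 and 3, but 0.0040 with log2 total counts and 0.06 with ENSMUSG00000119584's share as a covariate. Outside these lists, Eif3m, a subunit of a translation initiation factor, rose from 66.6 ± 5.93 CPM with water to 85.0 ± 5.75 CPM with Samul-tang (log2 fold change 0.35 ± 0.07, edgeR adjusted p = 0.0172).

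Of the named genes called higher, Mpc1, a subunit of the carrier that brings pyruvate into mitochondria, ran from 26.5 through a median of 28.4 to 31.0 CPM with water and from 35.1 through 39.5 to 41.9 CPM with Samul-tang. Every treated library lay above every aged water library, and the log2 fold change was 0.46 ± 0.09 (edgeR adjusted p = 0.0179). Mpc1 was the only called gene of 35 tested in the glycolysis and tricarboxylic acid cycle list (2.86%, beside 0.548% of all genes called higher). The median of that list, 0.09, turned to -0.04 with log2 total counts as a covariate (-0.0051 with ENSMUSG00000119584's share). Slc25a12, which exchanges aspartate for glutamate across the inner membrane, went from 31.2 ± 1.63 to 41.4 ± 4.66 CPM (SD, n = 6), a log2 fold change of 0.41 ± 0.08 (edgeR adjusted p = 0.0172). Slc25a22, a glutamate carrier, rose by 0.45 ± 0.11 (edgeR adjusted p = 0.0406), with overlap, and was called under 12 of 27 alternatives. Its mean of 18.6 CPM was near the young mean of 17.7 CPM. Timm23, a channel for protein import, and Vdac3, a pore of the outer membrane, rose by 0.34 ± 0.07 and 0.25 ± 0.05 (adjusted p = 0.0172 and 0.0183), both without overlap. Oat, a mitochondrial enzyme that breaks down ornithine, stood at 64.8, 68.3 and 77.3 CPM (lowest, median and highest) in the water group and at 87.5, 93.8 and 108 CPM in the treated group. Its log2 fold change was 0.44 ± 0.07 (edgeR adjusted p = 0.0105), and its young mean was 64.7 ± 7.55 CPM.

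The respiratory chain itself showed one call in each genome. Of 77 nuclear genes for its subunits, Uqcrc2, a core protein of complex III, was called, at 142 ± 10.7 CPM with water and 173 ± 13.3 CPM with Samul-tang (SD, n = 6; log2 fold change 0.29 ± 0.06, edgeR adjusted p = 0.0274). The median of that list was 0.09, with 64 values above 0, and it was 0.0036 with log2 total counts and 0.03 with ENSMUSG00000119584's share as a covariate. Of the 13 protein genes of the mitochondrial genome 1 was called (7.69%, beside 0.489% of all genes called lower). This was mt-Nd5, a subunit of complex I, which fell from 1049 to 1204 CPM in the water group (median 1131) to 822 to 1045 CPM in the treated group (median 961). The groups did not overlap (log2 fold change -0.25 ± 0.06, edgeR adjusted p = 0.0335). Values of the 13 genes ran from -0.43 to 0.30, with 7 above 0 and 9 at an unadjusted p under 0.05. Their median was 0.13, and it was 0.02 with log2 total counts and -0.03 with ENSMUSG00000119584's share as a covariate. The summed share of those 13 genes was 8.44 ± 0.610% in treated and 7.63 ± 0.535% in water libraries (exact permutation p = 0.0411, adjusted p = 0.0411, n = 6), opposite in sign to mt-Nd5, and this call was lost in 8 of 12 tests that left out 1 library (treated 1, 2, 3 or 5, or water 1, 3, 4 or 6; differences of 0.658 to 0.788 percentage points).

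A list of endoplasmic reticulum genes held a few calls, all higher, and the proteasome list held 1. In the list for protein folding in the endoplasmic reticulum and the unfolded protein response, 3 of 37 (8.11%) were called higher, beside 0.548% of all genes, and 0 lower. The median was 0.13, and 0.04 without treated library 6. Selenof, a selenoprotein of that compartment, was at 110, 144 and 150 CPM (lowest, median and highest) with water and at 164, 189 and 202 CPM with Samul-tang, with no overlap (log2 fold change 0.46 ± 0.09, edgeR adjusted p = 0.0172). Ngly1, which strips sugar chains from misfolded glycoproteins, rose by 0.46 ± 0.09 without overlap, and Ssr3, a part of the translocon-associated complex, by 0.34 ± 0.08 with it (adjusted p = 0.0172 and 0.0332). None of these 3 belongs to the classical stress-induced chaperones. With log2 total counts as a covariate the list's median was 0.0033, and with ENSMUSG00000119584's share 0.06. Psma5, a ring subunit of the proteasome, was the one call among 33 proteasome genes (3.03%, beside 0.548% of all genes called higher). It was at 59.0 ± 5.53 CPM with water and 72.5 ± 3.52 CPM with Samul-tang (log2 fold change 0.30 ± 0.06, edgeR adjusted p = 0.0247). Psma5 was called under 16 of 27 alternatives. The proteasome list's median of 0.08 was 0.02 with log2 total counts and 0.01 with ENSMUSG00000119584's share as a covariate. No heat shock gene of 18 was called, and their median was -0.04 (-0.08 to 0.04 over the 27 alternatives).

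The smallest p of all named genes belonged to Akr1b3, an aldose reductase. Its 6 water libraries lay within 111 to 120 CPM (median 118), its 6 treated libraries between 137 and 181 CPM (median 155) and its young libraries between 115 and 125 CPM. All treated libraries were above all others, and the log2 fold change was 0.43 ± 0.06 (edgeR adjusted p = 0.00321), called under 25 of 27 alternatives, the exceptions being the 2 covariates. Ggh, which trims glutamate chains from folates, rose from 49.9 ± 4.82 CPM with water to 74.5 ± 13.98 CPM with Samul-tang (log2 fold change 0.58 ± 0.11, edgeR adjusted p = 0.0172), with overlap. Paics, an enzyme of purine synthesis, rose by 0.34 ± 0.07 (adjusted p = 0.0172), and Pcna, the sliding clamp of DNA replication, by 0.33 ± 0.07 (adjusted p = 0.0242). Pcna was the only call among 37 cell cycle genes, whose median was 0.03 (-0.19 to 0.10 over the alternatives). Surf2 (0.47 ± 0.08, adjusted p = 0.0105), the lysine methyltransferase gene Smyd2 (0.37 ± 0.07, adjusted p = 0.0172) and Sumo2, a small protein tag (0.30 ± 0.06, adjusted p = 0.024), complete the named genes of this kind. Young means of Akr1b3, Paics, Pcna, Surf2 and Smyd2 were 119, 276, 53.9, 27.1 and 29.1 CPM, each nearer to the aged water mean (116, 272, 52.7, 26.5 and 27.5 CPM) than to the treated mean (157, 343, 66.1, 36.8 and 35.4 CPM).

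**Figure D3:**
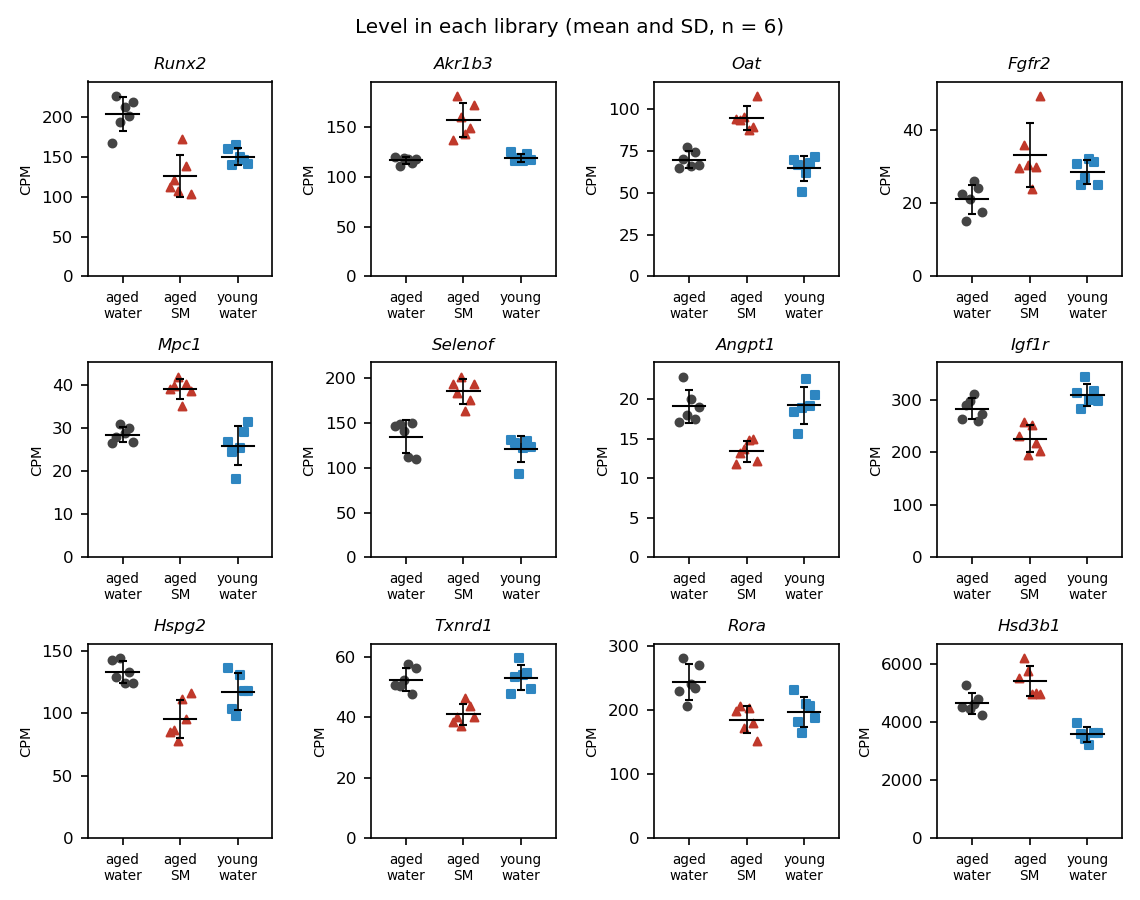
CPM of 12 genes in each library by group, with the mean and SD (n = 6) as lines, each vertical axis starting at 0. For Akr1b3, Oat, Mpc1 and Selenof the 6 treated (SM) libraries lie above the 6 aged water libraries and for Angpt1, Igf1r, Hspg2 and Txnrd1 below them, while Runx2, Fgfr2, Rora and Hsd3b1 overlap.

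Growth factor signalling genes were called in both directions. In the list for fibroblast, platelet-derived and insulin-like growth factor signalling, 2 of 30 genes (6.67%) were called higher and 1 (3.33%) lower. Of all genes tested, 0.548% were called higher and 0.489% lower. The list's median was 0.06 (-0.05 with log2 total counts as a covariate, -0.03 with ENSMUSG00000119584's share). Fgfr2, a fibroblast growth factor receptor, ran from 15.2 through 21.7 to 25.9 CPM in the water group and from 23.8 through 30.1 to 49.2 CPM in the treated group. One treated library stood well above the rest, the groups overlapped, and the log2 fold change was 0.66 ± 0.15 (edgeR adjusted p = 0.0354). Fgfr2 was called under 11 of 27 alternatives. Pdgfd, a ligand of platelet-derived growth factor receptors, rose from 13.2 ± 0.937 to 18.2 ± 2.06 CPM without overlap (SD, n = 6; log2 fold change 0.46 ± 0.10, edgeR adjusted p = 0.0247). Igf1r, the receptor of insulin-like growth factor 1, lay between 260 and 311 CPM (median 282) with water and between 196 and 258 CPM (median 224) with Samul-tang. Its groups met without overlapping (log2 fold change -0.32 ± 0.07, edgeR adjusted p = 0.0273). Young means of Fgfr2, Pdgfd and Igf1r were 28.4, 11.9 and 309 CPM. The ligand gene Igf1 was not called (0.19 ± 0.09, adjusted p = 0.272). In the list for PI3K, AKT, mTOR and FOXO, 1 of 36 genes was called (2.78%, beside 0.489% of all genes called lower). This was Rps6ka2, a ribosomal S6 kinase, at 10.01 ± 2.02 CPM with water and 5.22 ± 2.05 CPM with Samul-tang (SD, n = 6; log2 fold change -0.94 ± 0.19, edgeR adjusted p = 0.0215). Treated library 2, at 9.16 CPM, lay inside the water range and the other treated libraries at 3.77 to 5.71 CPM lay below it. Foxo3, a guardian of resting follicles, stood at -0.01 ± 0.11 (adjusted p = 0.971).

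Runx2, a transcription factor that hCG raises in granulosa cells and that takes part in luteal development, had the second smallest p of the named genes and was lower in treated ovaries. Water libraries ran from 167 through a median of 207 to 227 CPM and treated libraries from 104 through 117 to 173 CPM. Only 1 treated library reached the water range. The log2 fold change was -0.69 ± 0.10 (edgeR adjusted p = 0.00407), called under 24 of 27 alternatives and between -0.80 and -0.48 across them. Young libraries, at 140 to 166 CPM, lay below the aged water libraries and inside the treated range. Runx2 was the only call among 29 tested genes of ovulation and cumulus expansion and among 35 transcription factors of the ovulatory response. These shares, 3.45% and 2.86%, stand beside 0.489% of all genes called lower. The median of the first list was 0.15, but -0.14 with log2 total counts as a covariate and 0.04 with ENSMUSG00000119584's share, and that of the second was -0.03 (-0.13 to 0.0076 over the alternatives). Pgr, the progesterone receptor, and Ptgs2, which makes prostaglandins for follicle rupture, were low, with means of 1.46 and 0.644 CPM in the water and 1.98 and 0.864 CPM in the treated group, and neither was called (adjusted p = 0.506 and 0.737).

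Steroid synthesis genes were not called. In the luteal and steroidogenic list 0 of 25 genes passed, beside 1.04% of all genes called, and 6 had an unadjusted p under 0.05. The median log2 fold change was 0.04 (-0.20 to 0.06 over the alternatives, -0.20 with log2 total counts as a covariate). One of the 25, Sf1, is by its symbol a splicing factor gene and not a steroidogenic gene. Star, which moves cholesterol into mitochondria, and Cyp11a1, which cleaves its side chain, each stood at 0.10 (SE 0.21 and 0.08; edgeR adjusted p = 0.864 and 0.545). Hsd3b1, which makes progesterone, came nearest to the threshold, with 4237 to 5270 CPM in the water group (median 4577) and 4967 to 6217 CPM in the treated group (median 5275). The difference was 0.22 ± 0.07 (adjusted p = 0.0889), and the young libraries, at 3201 to 3990 CPM, were below both aged groups. Akr1c18, which breaks progesterone down in regressing corpora lutea, varied from 118 to 1622 CPM among water and from 88.3 to 730 CPM among treated libraries. Its log2 fold change of -1.02 carried an SE of 0.63 (adjusted p = 0.445). Lhcgr, the receptor for hCG, stood at -0.52 ± 0.30 (adjusted p = 0.4). The granulosa genes Fshr and Cyp19a1 stood at -0.01 ± 0.28 and -0.02 ± 0.70. Cholesterol synthesis and uptake had 0 calls among 29 genes and a median of -0.09 (-0.29 to -0.05 over the alternatives).

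Oocyte genes did not pass either. Of 40 oocyte genes tested 0 were called, beside 1.04% of all genes, and 5 had an unadjusted p under 0.05. Their median was 0.19 with 33 values above 0, and it was 0.07 without treated libraries 1, 2 and 3, 0.11 without water library 3 or 4, 0.30 without water library 5 and 0.32 without treated library 6. Gdf9, a growth factor that the oocyte secretes, was at 6.96 to 13.97 CPM with water and at 6.88 to 13.3 CPM with Samul-tang, against 21.8 to 36.6 CPM in young ovaries (log2 fold change for treatment 0.14 ± 0.17, edgeR adjusted p = 0.732). Zp3, of the egg coat, stood at 4.06 ± 1.28, 5.18 ± 1.899 and 15.1 ± 2.46 CPM in water, treated and young libraries (SD, n = 6 each; 0.35 ± 0.23, edgeR adjusted p = 0.46). For both genes the ranges of the aged groups overlapped and lay below every young library.

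One gene of the angiogenic and hypoxia list was called, Angpt1, lower in treated ovaries (3.70% of 27, beside 0.489% of all genes called lower). Angpt1, the ligand that steadies vessels through the Tek receptor, ran from 17.2 through 18.6 to 22.8 CPM with water and from 11.8 through 13.5 to 14.9 CPM with Samul-tang. The groups did not overlap (log2 fold change -0.51 ± 0.10, edgeR adjusted p = 0.0172), and the young mean of 19.2 CPM was level with the aged water mean of 19.1 CPM. The 27 genes of that list had a median of -0.11 (-0.35 to -0.07 over the alternatives). Vegfa (-0.11 ± 0.12, adjusted p = 0.696) and its receptor gene Kdr (-0.22 ± 0.09, adjusted p = 0.197) were not called. Hspg2, which belonged to none of the lists and encodes the basement membrane proteoglycan perlecan, went from 124 to 144 CPM (median 131) down to 78.0 to 116 CPM (median 91.0), without overlap (log2 fold change -0.48 ± 0.09, edgeR adjusted p = 0.0172). Beside these, endothelial markers had 0 calls among 11, with 3 values above 0, a median of -0.20 (-0.06 without treated library 6) and a summed level of 457 to 501 CPM with water and 273 to 508 CPM with Samul-tang. Smooth muscle and pericyte markers had 0 calls among 10, a median of -0.16 (-0.47 with log2 total counts as a covariate) and sums of 1199 to 1300 and 1003 to 1267 CPM. The part of these cells in the lower values was not tested. Collagen and matrix genes had 0 calls among 37 (median -0.04, and -0.19 to 0.04 over the alternatives), and Col1a1, of type I collagen, stood at 0.08 ± 0.11 (adjusted p = 0.759).

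Of the named genes called lower that were not in a list, Dync1h1, the heavy chain of the dynein motor, fell from 159 ± 11.7 CPM with water to 125 ± 10.9 CPM with Samul-tang (log2 fold change -0.36 ± 0.07, edgeR adjusted p = 0.0141). Syne1, which ties the nuclear envelope to the cytoskeleton, and Cdc42bpb, a kinase downstream of Cdc42, fell by 0.47 and 0.40 on the log2 scale (SE 0.09 and 0.07; adjusted p = 0.0172 and 0.0111). Those 3 genes did not overlap between groups. Among regulators of chromatin and transcription, Kat6a, a histone acetyltransferase, ran from 65.4 through 67.5 to 74.5 CPM with water and from 40.2 through 54.3 to 61.2 CPM with Samul-tang (-0.40 ± 0.08, adjusted p = 0.0172). Ankrd11 (-0.32 ± 0.06, edgeR adjusted p = 0.0172), Tnrc18 (-0.42 ± 0.08, edgeR adjusted p = 0.0173) and the nuclear receptor corepressor Lcor (-0.40 ± 0.07, edgeR adjusted p = 0.00961) fell without overlap too. Young means of Dync1h1, Kat6a and Ankrd11 (160, 69.1 and 324 CPM) were level with or above the aged water means (159, 69.1 and 312 CPM). Those of Syne1, Cdc42bpb, Tnrc18 and Lcor (37.6, 42.0, 96.6 and 46.5 CPM) lay between the means of the 2 aged groups. The histone gene Hist2h2aa1 fell from 58.6 ± 14.7 CPM with water to 27.7 ± 10 CPM with Samul-tang (log2 fold change -1.08 ± 0.22, edgeR adjusted p = 0.0276). It was 1 call among 17 histone genes tested (5.88%, beside 0.489% of all genes called lower). Reads of histone genes with near-identical copies can be split between them. In the centrosome and cilium list, Cep131 fell by 0.56 and Ift20 rose by 0.28 (edgeR adjusted p = 0.0422 and 0.0406) among 43 genes with a median of -0.09 (-0.12 to -0.00058 over the alternatives). Each was 2.33% of that list, beside 0.489% of all genes called lower and 0.548% called higher. Snrnp70 was the single call among 38 spliceosome genes (2.63%, beside 0.489% of all genes called lower). Its log2 fold change was -0.25 ± 0.06 (edgeR adjusted p = 0.0391), while 29 of the 38 values were above 0.

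Further lower genes had separate roles. Txnrd1, a thioredoxin reductase, was the one call among 33 antioxidant and glutathione genes (3.03%, beside 0.489% of all genes called lower). It lay at 47.6, 51.4 and 57.6 CPM (lowest, median and highest) with water and at 37.0, 40.0 and 46.3 CPM with Samul-tang. The groups did not overlap (log2 fold change -0.36 ± 0.07, edgeR adjusted p = 0.0173), while 24 of the 33 values in its list were above 0. Rora, a nuclear receptor that drives clock genes, was the one call among 22 circadian genes (4.5%, beside 0.489% of all genes called lower). It fell from 244 ± 27.9 to 185 ± 21.5 CPM, near the young mean of 197 ± 23.8 CPM (SD, n = 6; log2 fold change -0.40 ± 0.09, edgeR adjusted p = 0.0298). Fars2, a mitochondrial aminoacyl-tRNA synthetase (-0.45 ± 0.08, adjusted p = 0.0105), and Ubr2, a ubiquitin ligase of the N-degron pathway (-0.36 ± 0.06, adjusted p = 0.011), fell without overlap. Cog1, of a Golgi tethering complex, fell from 6.09 ± 1.01 to 3.30 ± 0.676 CPM (SD, n = 6; -0.89 ± 0.16, edgeR adjusted p = 0.0127). Nlrx1, a mitochondrial regulator of innate immunity, was the one call among 30 genes of the interferon list (-0.81 ± 0.16, adjusted p = 0.0173), whose median was -0.17 (-0.05 without water library 6, -0.09 without water library 4, -0.11 without treated library 5, -0.26 without treated library 4 and -0.02 with ENSMUSG00000119584's share as a covariate).

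Immune genes and markers of other cells gave no call beyond Nlrx1. In the list for antigen presentation 0 of 20 genes were called, beside 1.04% of all genes, and 1 had an unadjusted p under 0.05. Of the 20 values 19 were at or below 0, and the median was -0.17. That median was -0.02 without water library 6 alone, and 0.04 with ENSMUSG00000119584's share as a covariate. The summed level of the list was 1221 to 2011 CPM with water and 1122 to 1493 CPM with Samul-tang. None of the 18 marker lists had a called member, beside 1.04% of all genes called. Lists this short can hold 0 calls at that share. Macrophage markers summed to 359 to 497 CPM with water and 380 to 682 CPM with Samul-tang, and the macrophage gene Adgre1 stood at 0.09 ± 0.21 (edgeR adjusted p = 0.872). Fibroblast markers summed to 1111 to 1414 and 1261 to 1664 CPM, and theca markers to 14.4 to 53.4 and 18.8 to 84.2 CPM. Of 8 fibroblast markers, 7 had values above 0 and 4 an unadjusted p under 0.05. The fibroblast median was 0.19, and 0.04 with log2 total counts as a covariate. Erythrocyte markers summed to 444 to 1258 and 383 to 1207 CPM. Markers of neutrophils (4.81 to 8.24 and 4.27 to 21.5 CPM), T and NK cells (5.54 to 10.6 and 6.398 to 8.815 CPM) and skeletal muscle (2.01 to 2.75 and 1.38 to 2.77 CPM) were low in both groups.

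**Figure D4:**
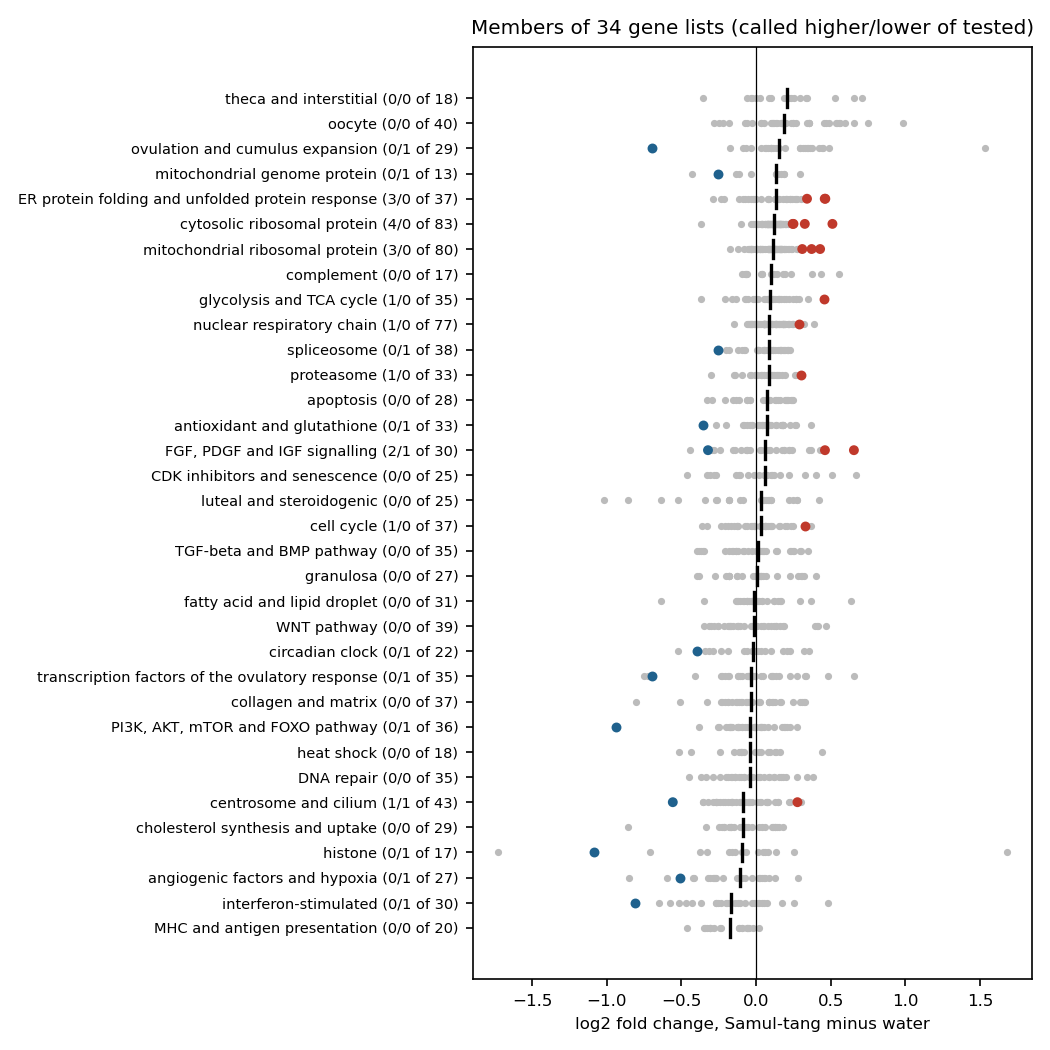
Log2 fold change of each tested member of 34 gene lists, with called members in red (higher) or blue (lower), the others in grey and the list median as a black bar; counts beside each name give called higher, called lower and tested. List medians lie between -0.17 and 0.21, and no list has more than 4 called members.

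Over the 34 lists together, 28 of 1131 genes tested (2.48%) were called, 17 higher and 11 lower, beside 1.04% of all genes. In the fit of genes averaging at least 5 CPM, 256 of 11375 were called. The lists were chosen with earlier results of these data known, so the shares called in lists carry no test. Promoters of the called genes were searched for 5 short motifs on both strands, in RefSeq windows of 250 bases before to 50 after the gene start (GRCm38.p6), found for 65 genes called higher, 56 called lower and 11319 tested. The E-box CACGTG was in 12.3%, 10.7% and 11.3% of these, the RUNX motif TGTGGTT in 4.62%, 3.57% and 4.62%, and the ETS motif ACTTCCG in 15.4%, 7.14% and 13.6%. The cyclic AMP response element TGACGTCA was in 0%, 3.57% and 3.35%, and the NR5A1 motif CAAGGTCA in 0%, 1.79% and 1.33%. The median GC content of the windows was 61.3%, 66.2% and 60.3%.

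The count of calls moved with the libraries that entered the fit. Leaving out 1 library at a time gave between 32 calls (without treated library 3) and 594 (without treated library 4), and without treated libraries 1, 2 and 3, a choice made after the data were seen, 10 genes were called, 7 higher and 3 lower. Akr1b3, Rps6ka2 and Rpl37rt were the named genes among those 10. A fit of only the 12 aged libraries called 45 genes, 26 higher and 19 lower, of which 44 were among the 176. No called gene changed its sign under any of the 27 alternatives that gave it a value. The alternatives share libraries with the contrast that chose these genes, so this carries no test. Relative to the water mean, the median log2 value of the 93 higher genes was 0.37, 0.43, 0.45, 0.27, 0.34 and 0.43 in treated libraries 1 to 6, and that of the 83 lower genes was -0.45, -0.45, -0.56, -0.23, -0.30 and -0.45. Those medians describe genes chosen by the same contrast and carry no test.

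**Figure D5:**
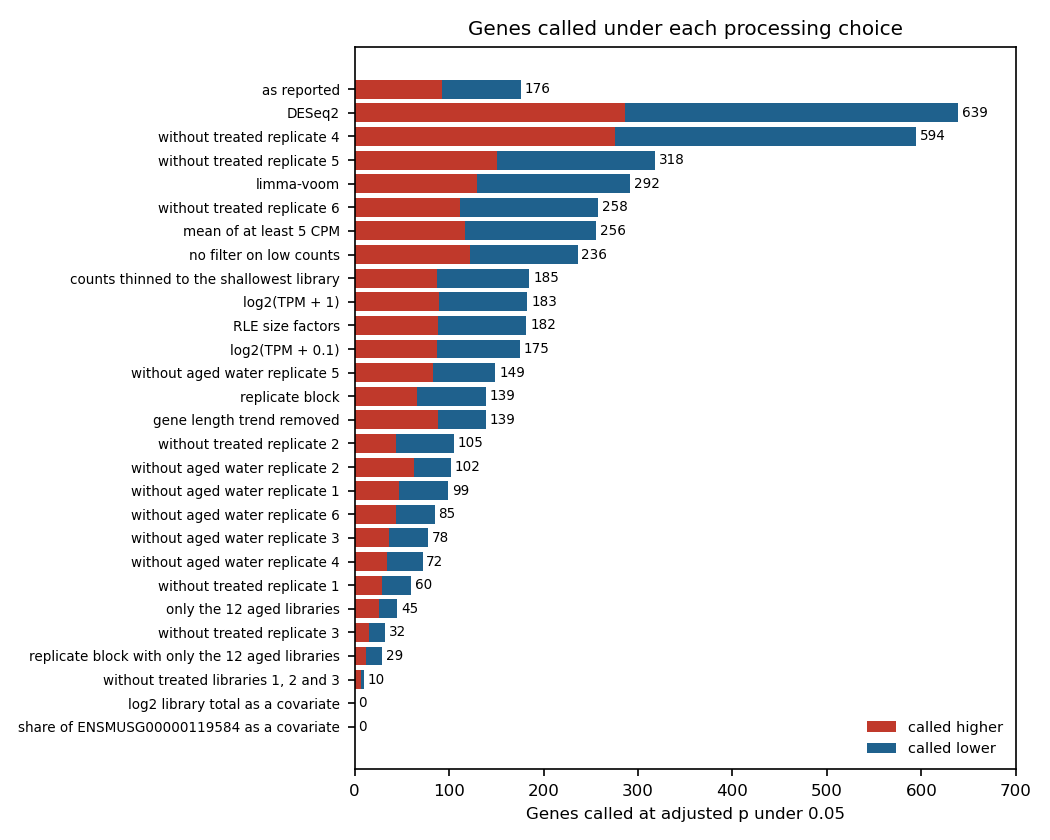
Number of genes called at an adjusted p under 0.05, higher in red and lower in blue, as reported and under 27 other processing choices, ordered by total. The counts run from 639 with DESeq2 to 0 with either covariate, around the 176 reported.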

How the data were processed

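Ovary RNA of 18 mice was made into 3′ tag libraries (QuantSeq, per the labels' protocols), 1 per mouse. Alignment with STAR 2.7.9a, counting with RSEM 1.3.3, FastQC 1.9 and the GRCm39 build are listed in the submitters' processing notes. Per the file headers, RSEM gave each library a table of 55416 genes with an expected count each, in which reads matching several genes are shared out, and a TPM value, as the authors deposited them. No source used here states the annotation or strand setting, so overlapping and antisense genes may share reads. The deposited TPM values divide by gene length, which does not suit 3′ tags, and served as alternatives only, as log2(TPM + 0.1) and log2(TPM + 1). Expected counts, of which 87.4% lay within 0.005 of a whole number, were rounded. Symbols came from GENCODE M21 and matched 52083 identifiers by Ensembl ID; no GRCm39 coordinates were used, and the promoter windows and the 2 chromosomes named come from annotations of GRCm38.

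Genes passing filterByExpr (minimum count 10, total 15) were tested with edgeR 4.0.16 (TMM scaling, robust quasi-likelihood, R 4.3.3), with all 18 libraries in 1 fit of 3 group means, two-sided, and Benjamini-Hochberg adjustment over all 16959 genes. The procedure was tested on simulated data. Levels are CPM on TMM-scaled totals, mean ± SD with n = 6; fold changes carry the SE of the fit. For library measures, exact permutation tests (two-sided) compared the means. Totals ran from 9.05 to 20.4 in units of 1000000 counts. No 2 libraries looked like one deposited again: over 153 pairs, chi-square divided by its degrees of freedom was at least 4.10. P-values measure the spread between mice.

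Named genes were the 15 called genes of smallest p and the 10 of largest fold in each direction (with a known symbol, no predicted gene, averaging 5 CPM or more where higher), every called list member, and a fixed panel; the text prints part of these 76 genes. Rpl37 was added after its values were seen. Of the list symbols, 19 were not matched. Members, lists and tests were chosen with earlier results of these data known. There were 27 alternatives: DESeq2 1.42.0, limma-voom 3.58.1, other scalings and filters, thinned counts, a length trend, covariates, a block on replicate number, the aged libraries alone, and libraries left out.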

Additional observations from a re-analysis of the deposited data

Results flagged for a closer look

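Each of the 7 library measures and 76 named genes was checked in the water and the treated group for a single library far from the other 5 (a gap to the nearest, divided by the range, above Dixon's critical value). Of 166 such checks 9 stood out, and chance gives about 1 in 20. In the treated group, library 3 had 730 CPM of Akr1c18 against 88.3 to 287 in the others, library 1 had 3.79 CPM of Pgr against 1.21 to 1.84, and library 2 had 9.16 CPM of Rps6ka2 against 3.77 to 5.71. Treated library 6 had 41.7 CPM of Lcor against 35.5 to 37.7, and treated library 4 had 8.16% ribosomal protein counts against 8.74% to 9.08%. Among the water libraries, library 6 had 115 CPM of Vdac3 against 122 to 125 and 48.5 CPM of Cdc42bpb against 43.9 to 45.0. Water library 5 had 58.0 CPM of Pcna against 50.7 to 52.8 and 1.69 CPM of Adgre1 against 3.44 to 4.10.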

How the results depend on the processing

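Depth and ENSMUSG00000119584 moved with treatment, and the cause of a changed count was not tested. Of 176 genes called (93 higher, 83 lower), log2 total counts or the share of ENSMUSG00000119584 as a covariate left 0 (0 and 0). Only the 12 aged libraries gave 45 (26 and 19), and the added choice without treated libraries 1, 2 and 3 gave 10 (7 and 3). DESeq2 gave 639 (286 and 353) and limma-voom 292 (130 and 162). A mean of at least 5 CPM gave 256 (139 lower), and removing the length trend gave 139 (51 lower). Leaving out 1 library gave 32 to 594 calls, 15 to 276 higher and 17 to 318 lower; the counts were 32, 60, 105, 318, 258 and 594 without treated library 3, 1, 2, 5, 6 and 4, and 72, 78, 85, 99, 102 and 149 without water library 4, 3, 6, 1, 2 and 5. RLE scaling, thinned counts, no filter and both TPM scales stayed within 1.5 times of 176 (175 to 236). The genes called differed more than these counts. Of the 176, RLE scaling kept 171, no filter 157, thinned counts 138, log2(TPM + 1) 97 and log2(TPM + 0.1) 93. The difference in mitochondrial protein share (0.807 percentage points) was 0.658 to 0.965 without 1 library and lost its call without treated library 1, 2, 3 or 5 or water library 1, 3, 4 or 6; the other 6 library measures kept theirs.

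Same-numbered treated and water libraries did not deviate together (r from -0.013 to 0.057, and 1 of 12 libraries correlated best with its own number). Such correlations can miss a shared cage or day that leaves little trace, so whether the numbers pair mice is not known. A replicate block gave 139 calls (66 and 73), and with only the 12 aged libraries 29 (12 and 17). Of 59 named called genes, 52 kept their call under the replicate block, 15 under the block with only the 12 aged libraries, 29 with those libraries and no block, 3 without treated libraries 1, 2 and 3, and 0 with either covariate; none reversed. Depth limits genes near 1 CPM, which is 9.05 to 20.4 counts per library.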
